A study of Mus musculus with 6 samples.

Results

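Mouse embryonic stem cell (ESC) cultures can hold a minority of cells that resemble primitive endoderm. The comparison described here sets such cells against the pluripotent cells around them. The 2 fractions were sorted by flow cytometry from undifferentiated cultures: PDGFRa-only cells carry the PDGF receptor alpha but no PECAM1, and PECAM1-only cells carry the adhesion molecule PECAM1 but no PDGFRa. Each has 2 libraries, so 4 of the 6 libraries of the series belong to the comparison, and all 13909 genes that passed a filter on low counts were compared. The remaining 2 libraries, from cells carrying both proteins (double-positive), entered the fit and are given only for reference.

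All 3 fractions share strain (129X1/SvJ x 129S1/Sv), culture and handling. The cells grew without feeders on gelatin in Knockout DMEM with 20% serum replacement and 1000 U/ml LIF, a cytokine that maintains pluripotency, and were taken at passages 13 to 17. No fraction received an added treatment and no gene was altered. RNA of 100000 sorted events per library was amplified before sequencing. The fractions are therefore mixtures set by gates on 2 proteins, and a gate can hold more than 1 cell type. The labels number the libraries of a fraction 1 and 2 without saying whether they come from separate cultures, so each p measures only the spread between these libraries. In bulk RNA such as this, fewer cells of a type and less RNA per cell cannot be told apart.

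Primitive endoderm is the epithelium that lines the blastocoel side of the inner cell mass. It lays down the basement membrane beneath the epiblast and gives rise to the visceral and parietal endoderm of the yolk sac, tissues known for taking up maternal proteins by endocytosis, digesting them in lysosomes and secreting matrix and carrier proteins. Its identity rests on GATA and SOX17-type transcription factors, while the epiblast and ESCs rely on OCT4, SOX2 and NANOG, and FGF4 from the pluripotent cells drives the choice between both fates.

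The genes of the sorted proteins matched the gates. Values are given throughout as CPM (counts of a gene per 1000000 counts, scaled for library composition) in replicates 1 and 2, with the PDGFRa-only libraries before the PECAM1-only libraries. Pdgfra (ENSMUSG00000029231, GRCm38 chromosome 5, 75152292 to 75198215) had 509 and 605 CPM against 2.04 and 1.88 CPM, and Pecam1 (ENSMUSG00000020717, GRCm38 chromosome 11, 106654217 to 106750628) had 1.57 and 1.51 CPM against 166 and 143 CPM. The groups lie far apart for both, in the direction of the label. The gates used these 2 proteins, so the difference is a check and not a result. Markers of primitive endoderm and of pluripotency gave the same picture: in the PDGFRa-only fraction 14 of 14 primitive endoderm markers were higher, while 13 of 14 pluripotency markers were lower. These lists hold Pdgfra and Pecam1 themselves, and without them the counts were 13 of 13 and 12 of 13. Klf4, the exception, had 109 and 100.5 CPM against 88.5 and 91.1 CPM. Over all tested genes 30.1% were higher and 28.8% lower. The lists were chosen with earlier results of these data known, so the counts are descriptions.

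Markers of other cell types had low summed levels. The sum of the endothelial and blood list was higher in the PDGFRa-only libraries, but its members went both ways. Mesoderm and cardiac markers summed to 9.20 and 7.10 CPM in the PDGFRa-only libraries and to 17.3 and 13.5 CPM in the PECAM1-only libraries, and 8 and 5 of the 12 were at 0 counts in the PDGFRa-only libraries. The 11 fibroblast markers summed to 3.82 and 12.5 CPM against 8.30 and 12.2 CPM, with Prrx1 and Twist2 at 0 counts in every library. The 6 oligodendrocyte precursor markers summed to 1.80 and 1.36 CPM against 9.32 and 9.72 CPM, with Olig1, Olig2, Sox10 and Cspg4 at 0 counts in both PDGFRa-only libraries. The 14 endothelial and blood markers summed to 137 and 88.5 CPM against 26.1 and 25.4 CPM, of which the cadherin gene Cdh5 gave most. Of the 5 tested, Cdh5 and Kdr (36 and 89 counts against 4 and 3) were higher. Vwf (2 and 10 counts against 52 and 56) was lower, and 2 were not called. Tek had 42 and 69 counts against 95 and 79. The median log2 fold change of the 5 was 0.19. Ptprc, Erg, Emcn, Pf4 and Hbb-bs were at 0 counts in all 6 libraries. The 10 trophoblast markers (1.35 and 2.12 CPM against 35.1 and 40.6 CPM, most of it from Tfap2c, while Cdx2 had 3 and 2 counts against 0 and 0) and the 8 neural markers (12.1 and 11.2 CPM against 66.8 and 68.2 CPM) were higher in the PECAM1-only libraries. The 8 markers of 2-cell-like cells summed to 0.449 and 0.453 CPM against 1.17 and 1.41 CPM, and none had enough reads for a test. The part of other cell types in the results was not tested.

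Sequences upstream of 7 genes show the kind of DNA that lies before genes at either end of the comparison. They were chosen after the values were seen: Cubn, Amn and Dab2 encode the receptor, its membrane partner and the cytosolic adaptor of one endocytic complex, Foxa2 encodes an endoderm transcription factor, and Nanog, Sox2 and Zfp42 are genes of the pluripotent state. Each stretch ends just before the RefSeq transcription start (GRCm38.p6) and runs 5′ to 3′ on the strand of the gene. Capitals mark matches, on either strand, to the GATA motif (AGATAA or TGATAA), a short form of the octamer motif bound by OCT4 (TTTGCAT) and a short SOX motif (ACAATG).
Cubn (chr2:13491877-13492126, minus strand): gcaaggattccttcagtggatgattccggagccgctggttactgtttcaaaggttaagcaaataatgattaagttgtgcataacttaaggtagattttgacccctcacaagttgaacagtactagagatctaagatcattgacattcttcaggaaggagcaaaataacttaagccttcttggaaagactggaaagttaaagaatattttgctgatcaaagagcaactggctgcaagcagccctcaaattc
Amn (chr12:111270846-111271094, plus strand): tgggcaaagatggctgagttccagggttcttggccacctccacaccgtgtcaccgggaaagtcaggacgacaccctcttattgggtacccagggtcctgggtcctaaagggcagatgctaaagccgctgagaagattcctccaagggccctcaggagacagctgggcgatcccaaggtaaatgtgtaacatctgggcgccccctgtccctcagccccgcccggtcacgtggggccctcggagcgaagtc
Dab2 (chr15:6299539-6299787, plus strand): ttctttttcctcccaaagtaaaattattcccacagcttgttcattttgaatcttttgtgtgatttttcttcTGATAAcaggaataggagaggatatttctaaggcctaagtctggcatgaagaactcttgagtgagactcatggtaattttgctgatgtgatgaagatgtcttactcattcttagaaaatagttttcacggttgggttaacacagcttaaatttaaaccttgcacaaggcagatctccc
Foxa2 (chr2:148046970-148047219, minus strand): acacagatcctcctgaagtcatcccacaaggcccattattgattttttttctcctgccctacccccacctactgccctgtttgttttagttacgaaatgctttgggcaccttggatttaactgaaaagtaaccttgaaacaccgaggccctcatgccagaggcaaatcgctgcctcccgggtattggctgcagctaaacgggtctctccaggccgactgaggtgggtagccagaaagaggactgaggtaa
Nanog (chr6:122707239-122707488, plus strand): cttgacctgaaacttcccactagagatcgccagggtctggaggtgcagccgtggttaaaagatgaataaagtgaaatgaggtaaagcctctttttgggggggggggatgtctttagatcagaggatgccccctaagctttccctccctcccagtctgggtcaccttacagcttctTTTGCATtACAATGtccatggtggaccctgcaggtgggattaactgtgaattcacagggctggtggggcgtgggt
Sox2 (chr3:34649745-34649994, plus strand): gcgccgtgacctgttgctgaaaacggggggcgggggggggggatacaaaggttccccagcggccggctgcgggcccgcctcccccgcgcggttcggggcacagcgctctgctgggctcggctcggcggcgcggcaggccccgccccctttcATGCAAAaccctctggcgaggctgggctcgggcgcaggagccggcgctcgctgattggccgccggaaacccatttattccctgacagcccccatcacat
Zfp42 (chr8:43307010-43307259, minus strand): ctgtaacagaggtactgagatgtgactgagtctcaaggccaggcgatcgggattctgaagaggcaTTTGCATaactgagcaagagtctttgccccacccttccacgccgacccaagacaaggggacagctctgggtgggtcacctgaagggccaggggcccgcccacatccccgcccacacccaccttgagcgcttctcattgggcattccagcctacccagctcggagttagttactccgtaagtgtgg

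In the Nanog stretch the short octamer and the SOX motif stand 1 base apart, starting 75 and 67 bases before the start site. Sox2 has a short octamer on the opposite strand 99 bases before its start, Zfp42 has one 185 bases before its start, and Dab2 has a GATA match 179 bases before its start. The stretches of Cubn, Amn and Foxa2 hold none of these letters. Over windows of 300 bases (250 before to 50 after the start), 14 motifs were searched in 9650 of the tested protein-coding genes. For these the window nearest the annotated gene start was taken. The shares of RefSeq genes use the window of lowest coordinate per gene, without a filter on gene type. The RefSeq shares are therefore not directly comparable with the others. The short octamer was present in 4.13% of genes called lower and 2.51% of genes called higher by the 2-fold test described below, against 3.10% of all those tested and 4.65% of 27025 RefSeq genes. The full octamer (ATGCAAAT) was present in 2.18%, 0.906%, 1.27% and 1.74%, in the same order. It always contains the short form, so these genes are part of those just counted and add no separate evidence. The GATA motif was present in 8.56% of the lower, 10.6% of the higher, 9.25% of the tested and 18.9% of the RefSeq genes, and the SOX motif in 8.11%, 6.55%, 6.72% and 12.8%. An ETS motif (CCGGAAGT) was present in 2.70% of the lower and 5.85% of the higher genes, below the 8.61% of all tested genes (3.93% of RefSeq genes). A forkhead motif (TGTTTAC) was present in 3.68% of the lower, 2.58% of the higher and 2.47% of the tested genes. A short HNF1 motif (GTTAAT) was present in 4.65%, 3.21% and 3.84%, in the same order. Both were more frequent among the lower than among the higher genes, unlike the GATA motif. The shares of the other motifs searched are not given. These shares are descriptions with no test, and a match is not evidence of binding.

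Over all genes the fractions differed widely and about evenly in both directions. Of the 13909 genes tested, 8205 (59.0%) differed at an adjusted p below 0.05, 4193 (30.1%) higher and 4012 (28.8%) lower in PDGFRa-only cells (edgeR's quasi-likelihood test, Benjamini-Hochberg adjustment over all tested genes). With 59.0% of genes called, a call says little about a single gene, and a stricter test was run beside it. That test asks whether the change exceeds 2-fold, and it called 3884 genes (27.9%), 1951 higher (14%) and 1933 lower (13.9%). Below, "higher" and "lower" without more refer to the first test, and "by the 2-fold test" to the second. The shares over all tested genes given here are the background to every count of list members above and below. Of the genes called by the first test, 1321 higher and 1234 lower had an estimated fold under 2. In 77.8% of tested genes the libraries of the fractions did not overlap, so a lack of overlap says little about a single gene. The split of calls depends on scaling: 51.1% were higher with TMM, 41.5% with upper-quartile and 37.8% with library-size scaling, which moved the median log2 fold change of all genes from 0.01 to -0.20 and -0.28.

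The reads were distributed less evenly than the genes. Genes called higher by the 2-fold test took 22.8% and 23.9% of the counts of tested genes in the PDGFRa-only libraries and 4.39% and 4.71% in the PECAM1-only libraries. Genes called lower took 1.99% and 2.06% against 11.5% and 11.0%. The reads of genes higher by the 2-fold test thus weighed more in their fraction than those of genes lower by it did in theirs. Of 554 long non-coding genes, 55 (9.93%) were higher and 115 (20.8%) lower by the 2-fold test, beside 1844 (15.2%) and 1727 (14.2%) of 12144 protein-coding genes. These counts were made after the data were seen and the difference between the classes was not tested.

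**Figure D1:**
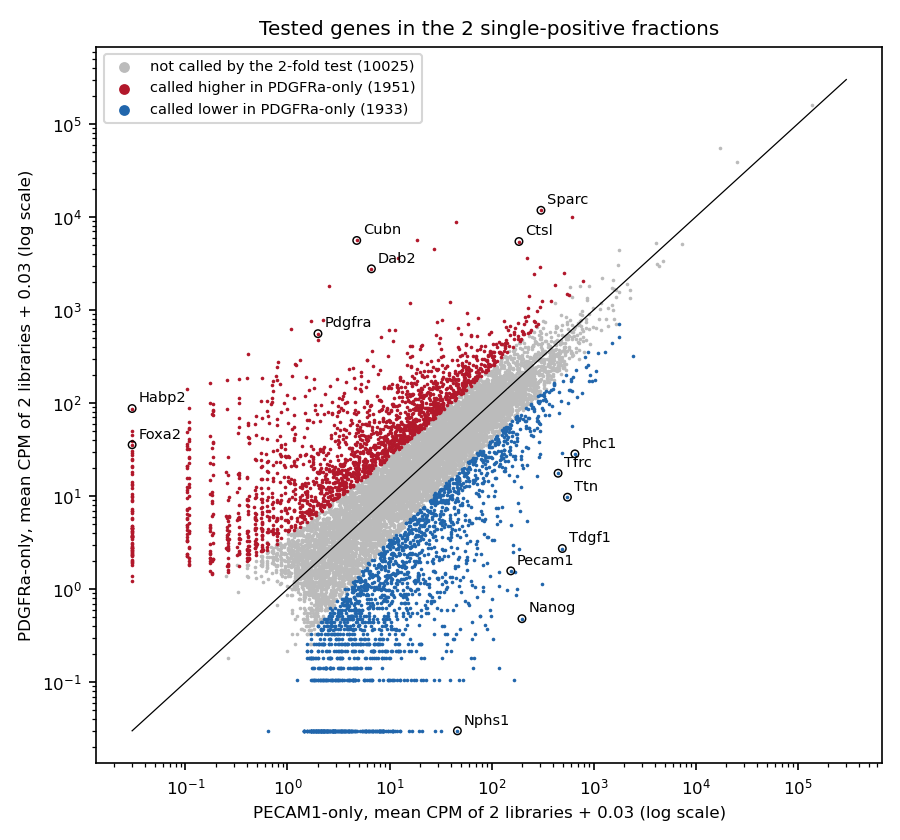
Mean CPM of each tested gene in the PECAM1-only fraction (x axis) and the PDGFRa-only fraction (y axis), each the mean of 2 libraries plus 0.03, on log axes. Red points are the 1951 genes called higher and blue points the 1933 called lower by the 2-fold test, grey points the others, and the line marks equal levels. Cubn, Dab2 and Sparc lie far above the line and Nanog, Tdgf1 and Nphs1 far below it.

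The genes with the most reads among those at least 8-fold apart encode a basement membrane and an uptake machinery on the PDGFRa-only side. The 12 were Sparc, the laminin chains Lama1, Lamb1 and Lamc1, the collagen IV chains Col4a1 and Col4a2, the perlecan gene Hspg2, the collagen lysyl hydroxylase gene Plod2, the protease gene Ctsl, and Cubn, Lrp2 and Dab2. Sparc, which encodes a collagen-binding matrix protein, had 10748 and 12849 CPM against 319.8 and 290.3 CPM. Lamc1, the gamma chain of laminin-111, had 9925 and 10132 CPM against 591 and 630.4 CPM. Its PECAM1-only level is well above 0. Cubn (ENSMUSG00000026726, GRCm38 chromosome 2, 13276338 to 13491813), which encodes the receptor cubilin, had 5111 and 6077 CPM against 5.10 and 4.39 CPM (log2 fold change 10.20 ± 0.27 (SE), adjusted p = 1.64e-16), and the double-positive libraries had 3891 and 4305 CPM. Lrp2, its partner megalin, had 3065 and 4190.4 CPM against 209.6 and 239.8 CPM, and Dab2 had 2613 and 2931 CPM against 5.24 and 7.997 CPM. Cubn and Dab2 were close to 0 in PECAM1-only cells and Lrp2 was not.

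The 12 on the PECAM1-only side were of mixed kinds. Phc1 (a Polycomb subunit), Kdm5b (a demethylase of histone H3 lysine 4) and Chd9 (a chromatin remodeller) act on chromatin. Phc1 (ENSMUSG00000040669, GRCm38 chromosome 6, 122317731 to 122340561) had 31.4 and 25.4 CPM against 671 and 642 CPM (log2 fold change -4.54 ± 0.19 (SE), adjusted p = 5.2e-14). Kdm5b had 56.6 and 56.8 CPM against 663 and 573 CPM, and Chd9 had 27.4 and 30.2 CPM against 525 and 461 CPM. All 3 kept reads in the PDGFRa-only libraries. Tdgf1, which encodes the Nodal co-receptor Cripto, had 3.59 and 1.81 CPM against 452 and 536 CPM. Tdgf1-ps1, a processed copy of Tdgf1 that can share its reads, is uncertain. Tfrc, which encodes the transferrin receptor, had 19.8 and 15.4 CPM against 425 and 473 CPM. Ttn, the gene of the giant muscle protein titin, had 8.53 and 10.9 CPM against 659.9 and 449.6 CPM, from a very long transcript that collects many reads at a given level. The others were Zfp42, Gsta4 (a glutathione transferase), Chchd10 (a mitochondrial protein), Usp28 (a deubiquitinase) and Stmn2 (a microtubule regulator); Stmn2 had 7.63 and 3.02 CPM against 218 and 226 CPM, with a log2 fold change of -5.47 that was -6.17 without PDGFRa-only replicate 1 and -4.85 without PDGFRa-only replicate 2.

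**Figure D2:**
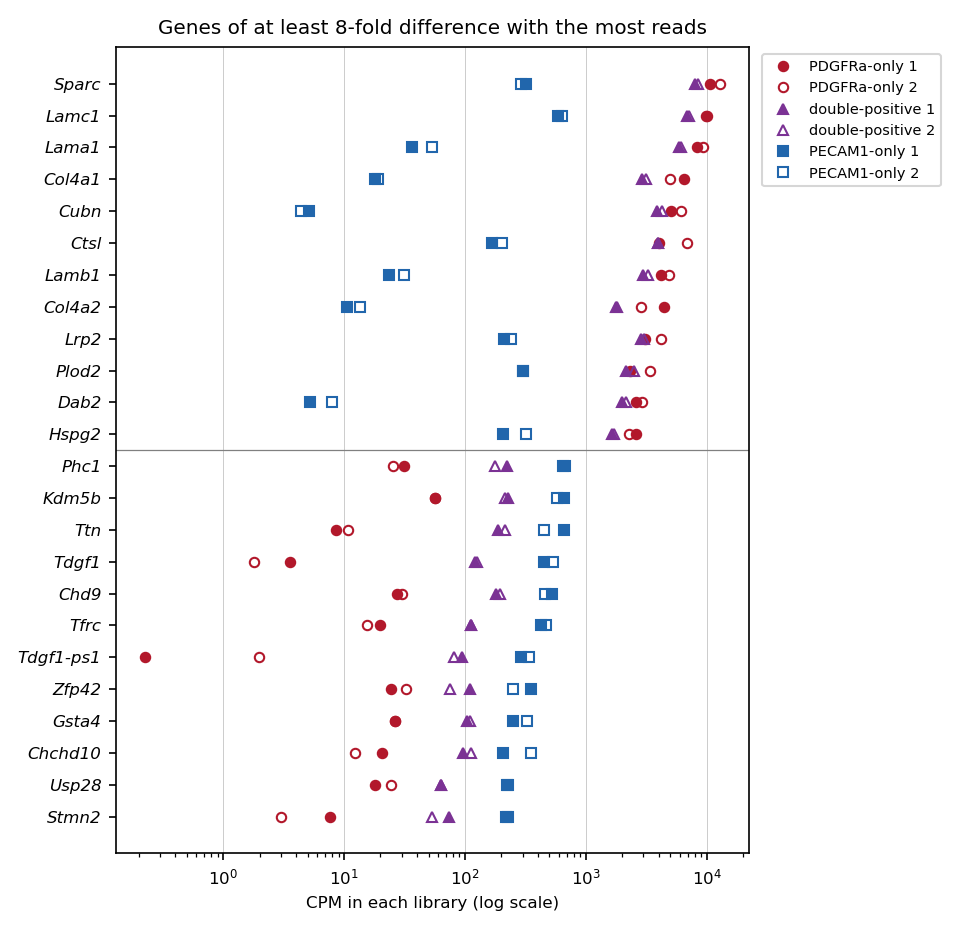
CPM of 24 genes in each library (x axis, log scale), the 12 above the line higher and the 12 below it lower in PDGFRa-only cells, each at least 8-fold by estimate and called by the 2-fold test. Red circles are PDGFRa-only, blue squares PECAM1-only and purple triangles double-positive libraries, filled for replicate 1 and open for replicate 2. The double-positive points lie between the others, close to PDGFRa-only in the upper rows and in mid-range in the lower rows.

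Among the listed genes of the secretory pathway, which makes and exports matrix proteins, most were higher. Transport through the Golgi and later steps had no list. Of 21 genes of entry into the endoplasmic reticulum (ER), the translocon and signal peptidase, 20 were higher and none lower, 10 of them by the 2-fold test, with a median log2 fold change of 1.23 against 0.01 for all tested genes. Sec61a1, the channel of the translocon, had 359 and 362 CPM against 86.5 and 106 CPM, and the signal peptidase subunit gene Spcs1 had 54.6 and 58.9 CPM against 10.6 and 7.53 CPM. Sec61a2, an alternative channel gene, was the 1 member not called (16.6 and 38.5 CPM against 33.6 and 40.9 CPM), but it was called lower, at -1.16 (adjusted p = 0.00111), without PDGFRa-only replicate 2. Of 18 ER chaperone and disulphide enzyme genes, 16 were higher (11 by the 2-fold test) and 1 lower (median 1.63). P4hb, a disulphide isomerase that is also a subunit of collagen prolyl 4-hydroxylase, had 1203 and 1648 CPM against 216 and 246 CPM. Hspa5, the chaperone BiP, had 1325 and 2294 CPM against 815 and 1003 CPM, a log2 fold change of 0.99 that did not pass the 2-fold test. Ero1l, an oxidase of the ER, had a log2 fold change of 1.49 (0.83 without PDGFRa-only replicate 2), and its relative Ero1lb had -1.09 (adjusted p = 0.036), a call lost without PDGFRa-only replicate 1 (adjusted p = 0.134), without PECAM1-only replicate 1 (adjusted p = 0.189), without PECAM1-only replicate 2 (adjusted p = 0.0596), without double-positive replicate 1 (adjusted p = 0.0565), without double-positive replicate 2 (adjusted p = 0.053).

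Genes devoted to collagen had the highest median of the secretory lists. Of 22 genes of collagen modification and folding, 18 were tested, 17 were higher (16 by the 2-fold test) and 1 lower, with a median of 2.63. Serpinh1 (ENSMUSG00000070436, GRCm38 chromosome 7, 99345376 to 99353239), the collagen chaperone HSP47, had 1278 and 1127 CPM against 11.2 and 20.5 CPM (log2 fold change 6.25 ± 0.24 (SE), adjusted p = 1.49e-14). P4ha2, a catalytic subunit of prolyl 4-hydroxylase, had 528 and 687 CPM against 9.32 and 13.2 CPM, and P4ha1, its relative, had 595 and 811 CPM against 52.6 and 64.4 CPM. The estimated fold was larger for P4ha2. P3h2, a prolyl 3-hydroxylase of collagen IV, had 115 and 215 CPM against 0.291 and 0 CPM, a ratio of 1156 (counting interval 319 to 9548). Bmp1, a procollagen protease, had a log2 fold change of 4.36 and the lysyl oxidase relative Loxl2 of 4.35. The exception was another relative, Loxl1, with 0.224 and 0 CPM against 1.46 and 2.67 CPM, a ratio of 22.6 (counting interval 3.72 to 924).

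Export from the ER followed. Of 19 genes of the COPII coat and cargo export, 18 were tested, 16 were higher (8 by the 2-fold test) and none lower (median 1.19; with upper-quartile or library-size scaling 14 were higher and 1 lower). The coat subunits did not move equally: Sec24d had 116 and 128 CPM against 14.8 and 18.5 CPM and Sec24a had 290.3 and 355 CPM against 72.1 and 69.6 CPM, while Sec24b had 147 and 123 CPM against 115 and 98.2 CPM and was called only without PDGFRa-only replicate 2 (0.48, adjusted p = 0.0165). Creb3l2 and Creb3l1, membrane-bound transcription factors known to act on secretory genes, had log2 fold changes of 5.94 and 3.12, the latter 3.79 without PECAM1-only replicate 2. Creb3l2 had 566 and 456 CPM against 8.73 and 7.84 CPM.

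Heparan sulphate, the sugar chain of perlecan and of cell-surface proteoglycans, showed members in both directions. Of 35 genes, 30 were tested, 17 were higher (13 by the 2-fold test) and 7 lower (3), with a median of 0.55. The sulphotransferase genes Hs3st1 and Hs3st3b1 had 186 and 172 CPM against 0.291 and 0.157 CPM (a ratio of 784 (counting interval 268 to 3806)) and 51.9 and 36.1 CPM against 3.78 and 6.12 CPM. The glypican gene Gpc3 was higher (3.06), and Gpc6 too (5.02). Among syndecans Sdc4 was higher (2.11) and Sdc2 lower (-2.81).

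**Figure D3:**
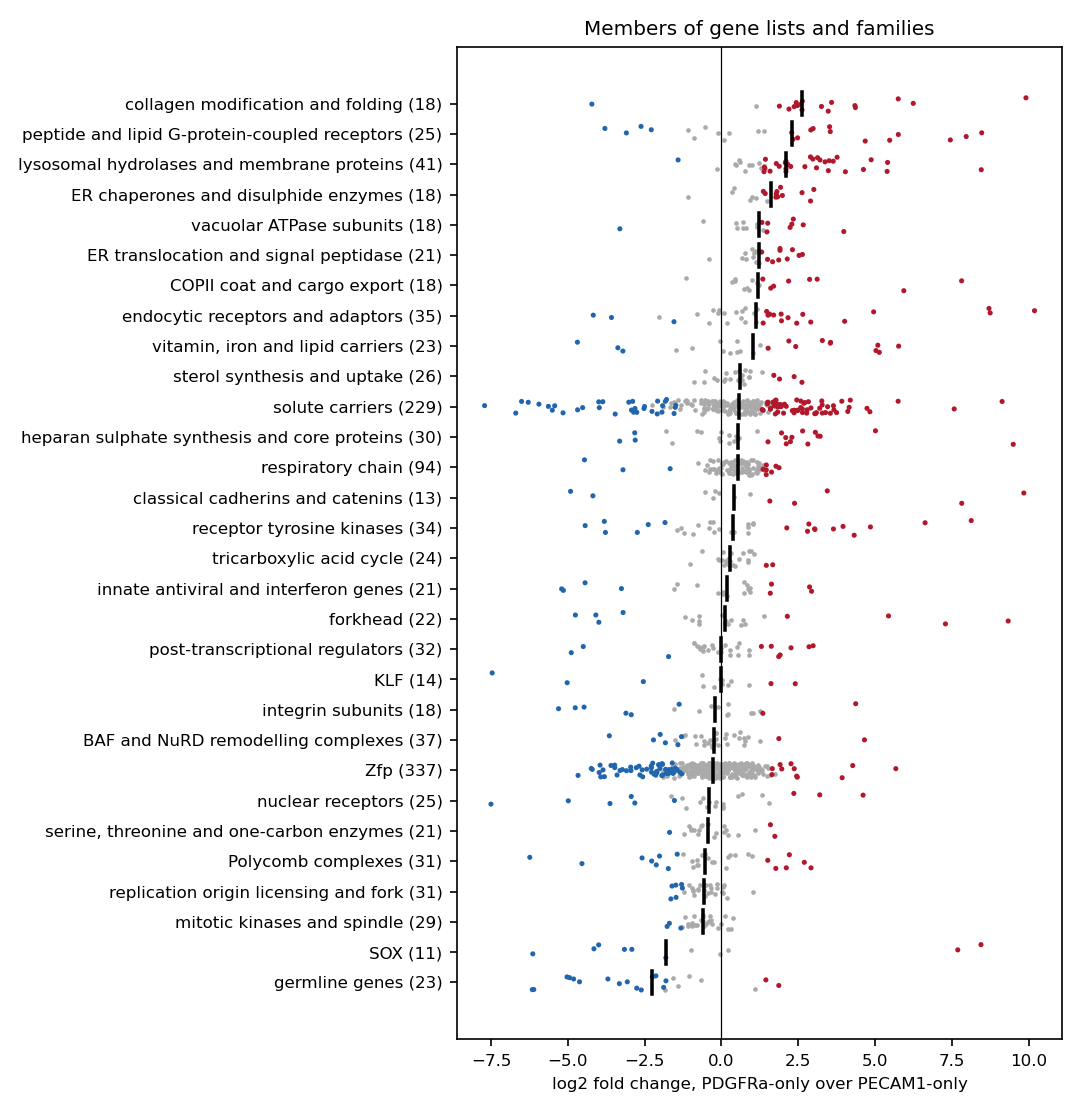
Log2 fold changes (PDGFRa-only over PECAM1-only, x axis) of the tested members of 30 gene lists and symbol families with at least 5 tested members (the marker lists of cell types are not drawn), ordered by median (black bar), with the number tested in brackets. Red and blue points were called higher and lower by the 2-fold test, grey points were not, and genes with 0 counts in a fraction stand at their lower bound. Of those drawn, collagen modification, G-protein-coupled receptors and lysosomal genes have the highest medians and SOX and germline genes the lowest.

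Uptake and digestion formed another block. Of 37 endocytic receptor and adaptor genes 35 were tested, 23 were higher (16 by the 2-fold test) and 4 lower (3), with a median of 1.14. Beside the cubilin complex, Lrpap1, a chaperone of megalin and its relatives, had 1040.3 and 1411 CPM against 42.9 and 35.9 CPM (log2 fold change 4.96 ± 0.21 (SE), adjusted p = 4.06e-14). Amn, the membrane partner of cubilin, had 83.1 and 65.1 CPM against 0 and 0.314 CPM, a ratio of 479 (counting interval 132 to 3963). The coat itself was higher by less: the clathrin heavy chain gene Cltc had 1309.9 and 1613 CPM against 562 and 576 CPM and the AP2 adaptor subunit gene Ap2s1 61.5 and 46.2 CPM against 10.04 and 13.8 CPM. The members that were lower are receptors too. Lrp1, a relative of megalin, had 5.61 and 6.65 CPM against 96.2 and 128 CPM (log2 fold change -4.17 ± 0.25 (SE), adjusted p = 1e-11), and Igf2r, the receptor for mannose 6-phosphate and IGF2, had 65.1 and 80.7 CPM against 184 and 242 CPM. Megalin and its relative thus differed in opposite directions.

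Lysosomal genes were higher with few exceptions. Of 44 genes, 41 were tested, 38 were higher (30 by the 2-fold test) and 1 lower (1), with a median of 2.1. Among the proteases, Ctsl had 4021 and 6880.5 CPM against 167 and 204 CPM, and the legumain gene Lgmn had 407 and 513 CPM against 10.5 and 11.1 CPM (log2 fold change 5.41 ± 0.22 (SE), adjusted p = 2.32e-14). Ctsh had 219 and 327 CPM against 0.291 and 1.25 CPM, a log2 fold change of 8.46 that was 7.76 without PECAM1-only replicate 1 and 9.78 without PECAM1-only replicate 2. Its PECAM1-only level rests on few reads. Ctsd, an aspartic protease, had 548 and 565 CPM against 181 and 236 CPM, a smaller difference. Membrane proteins moved as well: Lamp1 had 2547 and 2395 CPM against 498 and 536 CPM and the cholesterol transporter gene Npc1 155 and 233 CPM against 78.2 and 65.9 CPM. Manba, a beta-mannosidase, was the only member lower, with 39.3 and 42.4 CPM against 126 and 91.4 CPM. Hexa, which encodes a lysosomal hexosaminidase chain, was higher (242 and 228 CPM against 24.02 and 35.8 CPM).

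The proton pump that acidifies these compartments, the vacuolar ATPase, had 18 of 23 genes tested, of which 15 were higher (8 by the 2-fold test) and 1 lower, with a median of 1.24. The a subunit, of which the genome holds several versions, went both ways. Atp6v0a1 had 452 and 537 CPM against 32.2 and 30.3 CPM (log2 fold change 3.99 ± 0.18 (SE), adjusted p = 1.13e-13) and Atp6v0a4, the version of kidney and inner ear, had 1.80 and 1.66 CPM against 15.9 and 18.5 CPM. Of 24 carrier genes for vitamins, iron and lipids 23 were tested, 14 were higher (10 by the 2-fold test) and 4 lower (3), with a median of 1.04. Tcn2, the vitamin B12 carrier, had 186 and 205 CPM against 13.2 and 20.1 CPM; Stra6, the receptor for retinol-binding protein, had 70.7 and 54.1 CPM against 1.16 and 2.35 CPM; and Mttp, which loads lipid onto lipoproteins, had 96.8 and 141 CPM against 3.06 and 3.92 CPM. Ttr, a carrier of thyroid hormone, had 16.4 and 9.67 CPM against 0 and 0 CPM (at least 54.6-fold higher). Iron uptake was split: Tfrc was lower (-4.69), while the importer gene Slc11a2 was higher (1.27) and so was the exporter gene Slc40a1 (3.55).

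Surface receptors for outside signals differed gene by gene. Of 40 G-protein-coupled receptors for peptides and lipids 25 were tested, 15 were higher (13 by the 2-fold test) and 6 lower (4), with a median of 2.29. F2r, a thrombin receptor, had 639 and 850.2 CPM against 24.5 and 33.6 CPM (log2 fold change 4.68 ± 0.21 (SE), adjusted p = 9.68e-14). Pth1r, the receptor for parathyroid hormone and its relative, had 228 and 161 CPM against 1.16 and 0.314 CPM, a log2 fold change of 7.97 that was 9.20 without PECAM1-only replicate 1 and 7.37 without PECAM1-only replicate 2. Receptors for lysophosphatidic acid split: Lpar3 had 35.9 and 42.3 CPM against 0 and 0 CPM (at least 175-fold higher), Lpar1 had 30.98 and 37.9 CPM against 37.6 and 27.9 CPM and was not called, and Lpar4 had 0 and 0 CPM against 1.89 and 1.41 CPM (at least 6.13-fold lower). The sphingosine phosphate receptors S1pr1 (19.5 and 31.1 CPM against 0.582 and 0.314 CPM) and S1pr2 (5.61 and 3.78 CPM against 38.7 and 39.7 CPM) lay on opposite sides.

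Of 54 receptor tyrosine kinases 34 were tested, 14 were higher (11 by the 2-fold test) and 8 lower (6). Over all tested genes 30.1% were higher and 28.8% lower, or 14% and 13.9% by the 2-fold test. The median of the 34 was 0.37, which library-size scaling brought to 0.09 with 14 higher and 14 lower. The FGF receptors lay on opposite sides. Fgfr1 had 4.04 and 6.04 CPM against 106 and 119 CPM (log2 fold change -4.44 ± 0.23 (SE), adjusted p = 9.76e-13), while Fgfr2 had 113 and 98.8 CPM against 17.5 and 12.7 CPM, Fgfr3 had 21.3 and 16.2 CPM against 2.91 and 2.20 CPM and Fgfr4 had 27.2 and 27.6 CPM against 2.91 and 3.76 CPM. Flt1, a receptor for VEGF, had 186 and 178 CPM against 2.04 and 1.57 CPM. Tyro3 and Mertk, 2 of the receptors that bind dying cells through bridging proteins, had log2 fold changes of 2.13 and 3.05. Kit, the stem cell factor receptor, had 302 and 323 CPM against 141 and 165 CPM.

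Adhesion genes were found on both sides. Of 20 classical cadherin and catenin genes 13 were tested, 7 were higher (5 by the 2-fold test) and 3 lower (2). Cdh6 had 40.9 and 58.5 CPM against 0 and 0 CPM (at least 227-fold higher), and Cdh3, P-cadherin, had 0.224 and 1.06 CPM against 22.4 and 21.8 CPM (log2 fold change -4.91, or -6.49 without PDGFRa-only replicate 2). Cdh1, E-cadherin, was lower by little, with 346 and 294 CPM against 444 and 482 CPM, a call lost without PECAM1-only replicate 2 (adjusted p = 0.0607). Cdh5 had 117 and 61.03 CPM against 0 and 0.157 CPM, a ratio of 1105 (counting interval 198 to 43703). Of 24 integrin subunits 18 were tested, 5 were higher (2 by the 2-fold test) and 6 lower (6). By the first test this is near the shares over all tested genes (30.1% higher and 28.8% lower). The 6 lower by the 2-fold test are a larger share of the 18 than the 13.9% over all tested genes. Itga6, a laminin receptor subunit, was lower (93.2 and 95.3 CPM against 243 and 246 CPM), while Itga5, which pairs with integrin beta 1 to bind fibronectin, was higher (339 and 286 CPM against 121 and 124 CPM). Itgb1, the beta subunit shared by many pairs, had 462 and 715 CPM against 289.5 and 311 CPM and did not pass the 2-fold test.

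Among transcription factor families, SOX genes were mostly lower and both GATA genes tested were higher. Of 11 SOX genes tested, 2 were higher and 7 lower, with a median of -1.81. Sox17 and Sox7, of the same subgroup, had 104 and 121 CPM against 0.291 and 0.314 CPM and 284 and 226 CPM against 1.60 and 0.784 CPM (for Sox7 a log2 fold change of 7.70, or 8.32 without PECAM1-only replicate 1). Sox2, Sox15, Sox12 and Sox1 lay on the other side: Sox2 had 1.35 and 1.36 CPM against 94.3 and 99.6 CPM, Sox15 had 0.673 and 1.06 CPM against 15.3 and 13.96 CPM and Sox12 had 5.39 and 4.99 CPM against 37.4 and 55.04 CPM. Of 6 GATA genes 2 were tested, Gata4 with 698 and 548 CPM against 1.02 and 1.10 CPM and Gata6 with 301 and 284 CPM against 5.39 and 6.59 CPM.

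Of 14 KLF genes tested, 3 were higher, 4 lower and 7 not called, no larger a share than over all tested genes (30.1% higher and 28.8% lower), with a median of -0.02. Klf2, a gene of the naive pluripotent state, had 1.57 and 0.755 CPM against 39.7 and 32.5 CPM, and Klf12 had 0.224 and 0.151 CPM against 41.8 and 29.01 CPM. Klf6 had 249 and 292 CPM against 55.3 and 46.7 CPM and Klf8 had 88.7 and 92.9 CPM against 31.2 and 28.1 CPM. Klf5 was higher (0.90), a call lost without PDGFRa-only replicate 1 (adjusted p = 0.0539). Of 22 forkhead genes tested, 6 were higher (4 by the 2-fold test) and 7 lower (4), again near the shares over all tested genes. The members at 0 counts in a fraction were Foxa2 (35.7 and 35.5 CPM against 0 and 0 CPM, at least 157-fold higher) and Foxf2 (11.2 and 8.91 CPM against 0 and 0 CPM, at least 43.5-fold higher) on one side and Foxd3 (0 and 0 CPM against 6.26 and 2.82 CPM, at least 17.00-fold lower), Foxr2 and Foxi3 on the other. Foxq1 had 91.1 and 34.3 CPM against 0 and 0.157 CPM, a ratio of 757 (counting interval 135 to 29954). Foxp1 was lower without reaching 0, with 1.80 and 2.27 CPM against 55.5 and 57.2 CPM (log2 fold change -4.75 ± 0.28 (SE), adjusted p = 5.49e-12). The forkhead median of 0.12 became -0.09 with upper-quartile and -0.17 with library-size scaling.

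Of 25 nuclear receptor genes tested, 5 were higher (3 by the 2-fold test) and 11 lower (6), with a median of -0.39. Rarg, a retinoic acid receptor, had 3.14 and 1.51 CPM against 80.4 and 59.7 CPM (log2 fold change -4.98 ± 0.30 (SE), adjusted p = 9.73e-12), and Nr5a2, a receptor that can act in place of OCT4 in reprogramming, had 0.449 and 0 CPM against 35.96 and 37.2 CPM, a ratio of 202 (counting interval 55.7 to 1675). Esrrb, a regulator of the naive state, had 26.04 and 16.01 CPM against 145 and 171 CPM and Nr0b1 had 6.29 and 3.47 CPM against 62.2 and 54.1 CPM. On the other side stood Hnf4a, a regulator of visceral endoderm, with 67.8 and 85.5 CPM against 13.7 and 16.3 CPM. Rara, another retinoic acid receptor, was lower by less than Rarg (-1.53 on the log2 scale).

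Some families had members in opposite directions. Grouping symbols by their stem, 1340 families had at least 2 tested protein-coding members of at least 10 CPM, and in 146 of them members were called by the 2-fold test in both directions. These are families of symbols and not always of related genes: the stems AU, Gas and Nedd, for example, are among the 146. Families of many members can hold both by their size alone. The 12 with the largest opposite changes are described, ranked by the smaller of the 2 estimated changes. Among laminin alpha chains the values differed in direction, with Lama1 at 8365 and 9258 CPM against 36.8 and 53.6 CPM and Lama3 at 0.673 and 0.604 CPM against 51.97 and 37.5 CPM. Among D-type cyclins, which drive entry into the cell cycle, Ccnd2 had 144 and 163 CPM against 2.47 and 2.67 CPM and Ccnd1 had 1.80 and 0.604 CPM against 52.7 and 73.5 CPM (log2 fold changes 5.89 and -5.82, the latter -6.64 without PDGFRa-only replicate 1 and -5.11 without PDGFRa-only replicate 2). Among BMP ligands Bmp2 had 43.8 and 39.3 CPM against 0 and 0.157 CPM (a ratio of 544 (counting interval 97.2 to 21544)) and Bmp4 had 0.673 and 0.302 CPM against 25.04 and 15.2 CPM (log2 fold change -5.41 ± 0.53 (SE), adjusted p = 3.06e-08). The FGF ligands Fgf10 and Fgf4 had 94.1 and 79.01 CPM against 1.31 and 0.627 CPM and 0.224 and 0 CPM against 102 and 135 CPM. The log2 fold change of Fgf10 was 6.43, or 7.08 without PECAM1-only replicate 1, and Fgf4 was lower by a ratio of 1301 (counting interval 233 to 51411).

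The water channels Aqp8 and Aqp3 had 101 and 101 CPM against 0.291 and 0 CPM (a ratio of 669.9 (counting interval 185 to 5538)) and 0.449 and 0.302 CPM against 33.6 and 34.2 CPM. Robo2 and Robo4, receptors for Slit guidance proteins, had 12.8 and 9.37 CPM against 0.146 and 0.157 CPM and 0 and 0 CPM against 14.7 and 6.74 CPM (at least 40.1-fold lower). The semaphorins Sema6d and Sema5b had 26.3 and 25.7 CPM against 0.146 and 0.314 CPM and 0 and 0.302 CPM against 28.97 and 36.4 CPM. Myo7a, a myosin of sensory hair cells, had 169 and 209 CPM against 0.437 and 2.51 CPM (log2 fold change 7.02, or 6.24 without PECAM1-only replicate 1 and 8.70 without PECAM1-only replicate 2), and Myo1f, a myosin of white blood cells, had 0 and 0.151 CPM against 15.4 and 17.1 CPM (a ratio of 179.7 (counting interval 31.9 to 7132)). The remaining pairs were Pla2g12b and Pla2g1b (phospholipase A2 family), Adamts9 and Adamts14 (secreted metalloproteases), Fxyd3 and Fxyd6 (regulators of the sodium pump), and Sox17 and Sox2, with the first of each pair higher in the PDGFRa-only fraction.

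**Figure D4:**
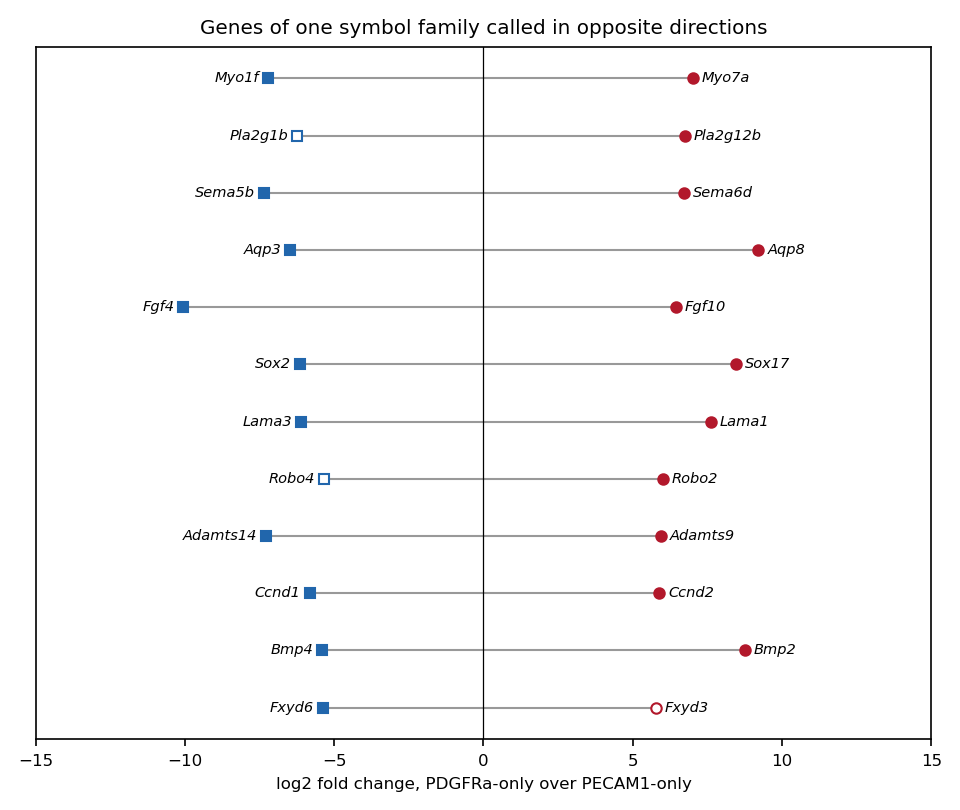
Log2 fold changes (PDGFRa-only over PECAM1-only, x axis) of 12 pairs from symbol families with members called in opposite directions, ranked from the top by the rule in the text. Red circles are the member highest and blue squares the member lowest, open symbols are lower bounds for genes with 0 counts in a fraction, and some filled symbols rest on 1 to 3 counts. Every pair spans 0, which the choice of pairs requires.

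Polycomb genes, which act on chromatin, were lower more often than higher. Of 31 Polycomb genes, all tested, 9 were higher (6 by the 2-fold test) and 17 lower (8), with a median of -0.54. Polycomb repressive complex 2 methylates histone H3 at lysine 27, and complex 1 ubiquitinates histone H2A. Of the alternative methyltransferases, Ezh2 had 101 and 124 CPM against 271 and 268 CPM and Ezh1 had 89.8 and 109.5 CPM against 26.2 and 32.3 CPM (log2 fold change 1.77 ± 0.21 (SE), adjusted p = 2.46e-07). Ezh2 was lower (-1.25 on the log2 scale) without passing the 2-fold test. Of the Polyhomeotic proteins Phc1 was lower and Phc2 higher (41.1 and 26.4 CPM against 5.39 and 4.86 CPM). Accessory subunits of complex 2 were among the lowest: Jarid2 had 121 and 110.4 CPM against 842 and 541 CPM, Mtf2 had 138 and 244 CPM against 659 and 609 CPM, Aebp2 had 46.02 and 53.3 CPM against 276 and 205 CPM and Phf19 had 0.449 and 0 CPM against 12.5 and 18.03 CPM (a ratio of 84.02 (counting interval 22.96 to 699)). The core subunit gene Suz12 was lower by less (-0.91), and so was Eed (-0.54), a call lost without PDGFRa-only replicate 2 (adjusted p = 0.152), without PECAM1-only replicate 1 (adjusted p = 0.413). Among the RING finger subunits of complex 1, Pcgf5 was higher (2.21), Pcgf6 lower (-0.81), and Bmi1 was not called, with 33.00 and 25.4 CPM against 27.4 and 22.9 CPM.

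**Figure D5:**
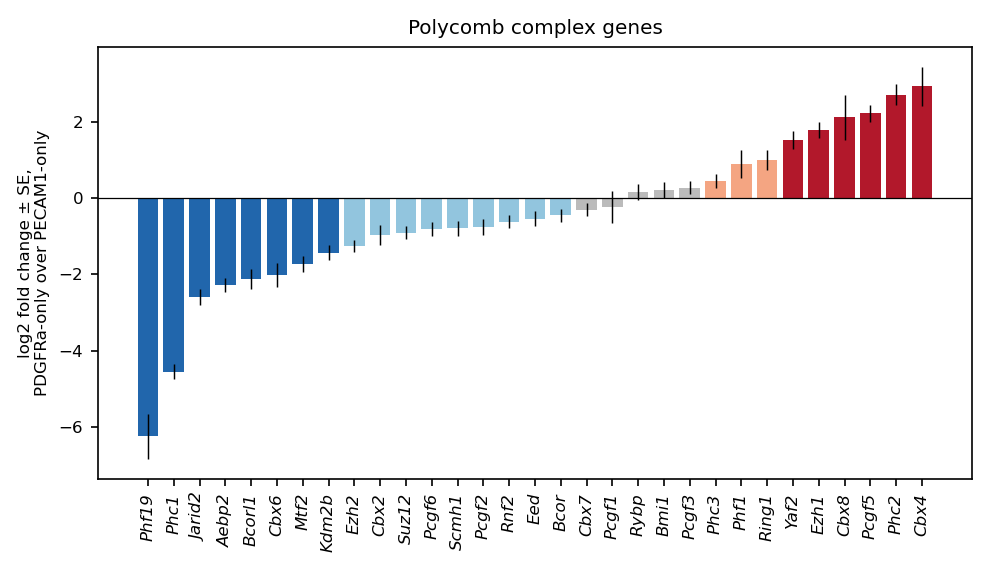
Log2 fold change (PDGFRa-only over PECAM1-only) of each of 31 Polycomb genes, with bars of 1 SE from the edgeR fit. Dark blue and dark red bars were called lower and higher by the 2-fold test, pale bars by the first test only, and grey bars were not called. Ezh2 and Ezh1, and Phc1 and Phc2, stand on opposite sides of 0.

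Of 37 tested genes of the BAF and NuRD remodelling complexes, 9 were higher (2 by the 2-fold test) and 15 lower (6). Over all tested genes 30.1% were higher and 28.8% lower, or 14% and 13.9% by the 2-fold test. The median of the 37 was -0.25, and with library-size scaling 4 were higher and 23 lower. The alternative ATPases of BAF diverged: Smarca2 (ENSMUSG00000024921, GRCm38 chromosome 19, 26605050 to 26778322) had 124 and 143 CPM against 5.97 and 4.55 CPM (log2 fold change 4.66 ± 0.22 (SE), adjusted p = 1.77e-13), and Smarca4 had 308 and 264 CPM against 237 and 281 CPM and was not called. Smarcc1, a core subunit known in ESCs, had 216 and 189 CPM against 550.0 and 529.5 CPM, and Smarcc2 had 81.9 and 55.7 CPM against 40.3 and 42.02 CPM. Germline genes, which ESCs express at low levels, were mostly lower: of 26, 23 were tested, 20 were lower (15 by the 2-fold test) and 3 higher (2), with a median of -2.25. Dazl, an RNA-binding protein of germ cells, had 7.41 and 6.34 CPM against 215 and 168 CPM, and Tex14 had 2.92 and 3.78 CPM against 99.9 and 111 CPM. Nlrp14 had 0 and 0 CPM against 20.4 and 18.2 CPM (at least 71.3-fold lower). The 3 that were higher were Rhox5, a homeobox gene, with 361 and 351 CPM against 97.8 and 96.9 CPM, Fkbp6 (1.45) and Sycp3 (1.09).

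Replication and mitosis genes were lower by small amounts. Of 31 tested genes of origin licensing and the replication fork, 18 were lower (6 by the 2-fold test) and 1 higher (0), with a median of -0.58. Mcm2, part of the replicative helicase, had 139 and 126 CPM against 389 and 349 CPM, and Pola1, the primase-associated polymerase, had 29.9 and 30.4 CPM against 87.1 and 101 CPM. The 1 that was higher was the loading factor Cdc6, with 83.5 and 79.9 CPM against 41.8 and 38.7 CPM. Of 29 mitotic kinase and spindle genes, 21 were lower (3 by the 2-fold test) and 1 higher (0), with a median of -0.60. Cenpf, a kinetochore protein, had 172 and 317 CPM against 842 and 827 CPM, and Bub1b, a checkpoint kinase, had 88.7 and 123 CPM against 346 and 342 CPM. The proliferation marker Mki67 had 933 and 876 CPM against 707 and 759 CPM and was called higher only without PDGFRa-only replicate 2 (0.35, adjusted p = 0.0442). The 1 higher member, Birc5, had a log2 fold change of 0.39 (adjusted p = 0.0432), a call lost without PDGFRa-only replicate 2 (adjusted p = 0.116), without PECAM1-only replicate 1 (adjusted p = 0.185), without PECAM1-only replicate 2 (adjusted p = 0.0818), without double-positive replicate 1 (adjusted p = 0.0604), without double-positive replicate 2 (adjusted p = 0.0721).

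Of 32 RNA-binding regulators, 11 were higher (7 by the 2-fold test) and 10 lower (3), with a median of -0.01. By the first test these counts are near the shares over all tested genes (30.1% and 28.8%). Lin28b, which blocks let-7 microRNA maturation, had 1.12 and 1.51 CPM against 42.5 and 38.6 CPM, whereas its relative Lin28a had 169.9 and 184 CPM against 254 and 229 CPM, a call lost without PECAM1-only replicate 1 (adjusted p = 0.14). The muscleblind splicing regulator Mbnl2 had 206 and 252 CPM against 27.1 and 30.7 CPM. Zfp36, Zfp36l1 and Zfp36l2, which promote decay of AU-rich messages, were all higher (2.27, 0.89 and 1.91). Of 337 tested genes with a Zfp symbol, most of them zinc finger genes, 56 were higher (11 by the 2-fold test) and 112 lower (54). Their median was -0.26. With upper-quartile scaling 34 were higher and 146 lower. With TMM, 30.1% of all tested genes were higher and 28.8% lower, or 14% and 13.9% by the 2-fold test. Zfp57, a guardian of imprints, had 38.8 and 36.6 CPM against 334 and 249 CPM, and Zfp423 had 3.37 and 3.78 CPM against 108 and 75.6 CPM. Zfp608 was the Zfp gene higher with the smallest p, with 19.98 and 21.6 CPM against 1.16 and 0.941 CPM.

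Of 30 interferon and antiviral genes 21 were tested, 10 were higher (4 by the 2-fold test) and 7 lower (4). The 10 include the interferon receptor genes Ifnar1, Ifnar2, Ifngr1 and Ifngr2, with log2 fold changes of 0.87, 1.63, 1.59 and 2.94. The 7 include 3 membrane effectors, of which Ifitm3 had 1.57 and 0.755 CPM against 34.9 and 46.9 CPM, Ifitm2 had 13.02 and 7.10 CPM against 80.2 and 106 CPM and Ifitm1 had 0 and 0 CPM against 6.99 and 12.4 CPM (at least 35.4-fold lower). These 3 are similar genes, among which reads may be split. The median of 0.19 fell to -0.02 with upper-quartile and -0.10 with library-size scaling.

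Of 26 sterol genes, 16 were higher (4 by the 2-fold test) and 1 lower, with a median of 0.60 (8 and 3 with library-size scaling). The feedback regulator gene Insig1 had 324 and 490.2 CPM against 72.3 and 85.6 CPM and the isomerase gene Ebp 28.7 and 14.96 CPM against 3.78 and 3.14 CPM. Of 21 serine, threonine and one-carbon enzymes tested, 10 were lower (1 by the 2-fold test) and 3 higher (2), with a median of -0.43. Shmt2, which splits serine in mitochondria, had 80.8 and 67.1 CPM against 172 and 171 CPM, and Tdh, the threonine dehydrogenase of mouse ESCs, had 127 and 149.6 CPM against 48.2 and 34.7 CPM, higher in the PDGFRa-only fraction. Of 24 citric acid cycle genes, 10 were higher (2) and 2 lower (0), with a median of 0.29 that library-size scaling brought to 0.00.

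Of 94 tested respiratory chain genes, 49 were higher (7 by the 2-fold test) and 5 lower (3), with a median of 0.53 (31 and 8 with library-size scaling). Cox6b1, a subunit of cytochrome c oxidase, had 114 and 79.9 CPM against 20.2 and 32.3 CPM. Its relative Cox6b2 and the gene of another subunit, Cox7b2, both known as forms of the testis, were lower (-1.67 and -3.20, the latter -4.32 without PDGFRa-only replicate 1 and -2.39 without PDGFRa-only replicate 2). Of 229 tested solute carriers, 110 were higher (60 by the 2-fold test) and 50 lower (33), with a median of 0.57. Slc13a5, a citrate importer, had 235 and 239.6 CPM against 4.51 and 4.23 CPM (log2 fold change 5.76 ± 0.21 (SE), adjusted p = 5.14e-15), and the phosphate importer gene Slc34a2 had 97.4 and 95.9 CPM against 0 and 0.314 CPM (a ratio of 639 (counting interval 177 to 5286)). Slc7a3, an importer of arginine and lysine, had 0.898 and 0.755 CPM against 205 and 144 CPM (log2 fold change -7.71 ± 0.33 (SE), adjusted p = 6.31e-14). Its PDGFRa-only values are under 1 CPM in both libraries.

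Some genes had no read at all in 1 fraction. Of the genes tested, 71 had 0 counts in both PECAM1-only libraries and 217 had 0 counts in both PDGFRa-only libraries. Such genes passed the filter only through the other fractions, so that all of them were called is a consequence of the filter. On the first side the 8 with the most reads were Habp2, Cdh6, Lgals2, Lpar3, Foxa2, Frzb, Tpbgl and Bace2. Habp2, a plasma protease, had 80.1 and 94.4 CPM against 0 and 0 CPM (at least 392-fold higher), and Frzb, a secreted Wnt inhibitor, had 30.3 and 31.1 CPM against 0 and 0 CPM (at least 136-fold higher). On the other side they were Nphs1, Prmt8, Slc27a2, Pla2g1b, Nlrp14, 2900026A02Rik, Inhbb and Gabrp. Nphs1, nephrin of the kidney filter, had 0 and 0 CPM against 45.1 and 47.4 CPM (at least 171-fold lower), and Inhbb, a subunit of activin B, had 0 and 0 CPM against 13.97 and 16.9 CPM (at least 56.8-fold lower). The bounds are set against 3 counts over both libraries of the fraction at 0 and cover counting error only, since amplified reads are not independent molecules.

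The double-positive fraction lay between the others in the share of counts taken by genes called by the 2-fold test. Over the genes called higher by the 2-fold test, its level had a median of 68.1% of the PDGFRa-only level (quartiles 59.8% and 76.8%), and over the genes called lower, a median of 42.9% of the PECAM1-only level (32.9% and 53.3%). The genes were chosen in libraries that enter these ratios, so the ratios are descriptions. Each ratio leaves out the level in the third fraction, so it does not measure a position between the fractions. Pdgfra itself had 552 and 518 CPM and Pecam1 53.8 and 44.9 CPM in the double-positive libraries. PDGFRa-only and double-positive libraries differed in 2450 genes (17.6%), 826 higher (5.94%) and 1624 lower (11.7%) in PDGFRa-only, and double-positive and PECAM1-only libraries in 5319 (38.2%), 3031 higher (21.8%) and 2288 lower (16.4%). Because all 3 comparisons share libraries, their counts are not independent. The count of 2450 was 1326 and 1444 without double-positive replicates 1 and 2, and the 826 higher were 218 and 306. The 2288 lower were 1317 and 1453 without PECAM1-only replicates 1 and 2, and 1339 and 1307 without double-positive replicates 1 and 2. With library-size scaling the 826 became 528 and the 2288 became 3658. Against the double-positive fraction, 20 of 41 lysosomal genes were higher in PDGFRa-only cells and none lower, 16 of 23 germline genes were lower and 1 higher, and 30 of 94 respiratory chain genes were higher and 2 lower. Among the primitive endoderm markers 9 of 14 were higher and none lower.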

How the data were processed

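RNA sequencing of 3 sorted fractions of mouse ESC cultures gave 6 libraries, 2 per fraction. The values are deposited raw read counts of Ensembl genes, not normalized. Per the submitters' processing notes, the tools were HTSeq 0.5.4p3, TopHat2 2.0.8b, cutadapt 1.2.1 and Bowtie2 2.1.0, with GRCm38; their order, and the annotation release, are not given in the sources used here. A deposited RPKM table was not used.

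The table lists 38561 genes, 24748 with a count; 36723 identifiers matched GENCODE M21, which gave symbols, types and positions. Totals were 4809661 and 7273669 counts (PDGFRa-only), 6147345 and 5694077 (PECAM1-only), and 6568777 and 6634022 (double-positive). Principal component 1 carried 83.9% of the variance, mt-Rnr2 took 12.8% to 17.9% of counts and the biological coefficient of variation was 13.5%. Genes were kept by filterByExpr (minimum count 10), scaled by TMM and fitted with edgeR 4.0.16 (robust quasi-likelihood, 1 mean per fraction, 6 libraries, 3 residual degrees of freedom; R 4.3.3, limma 3.58.1). Tests were two-sided, and the 2-fold test was edgeR's glmTreat at a log2 threshold of 1, both adjusted over the genes tested and called below 0.05. Folds for genes with 0 counts in a fraction are bounds against 3 counts, and those for 1 to 3 counts have exact 95% counting intervals.

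The members and lists were chosen with earlier results of these data known. Named were the sort markers, the 12 most-read genes per direction of at least 8-fold, the 8 most-read genes per direction with 0 counts, up to 3 called members per direction of each of 32 lists and 8 symbol families, and 12 symbol families with opposite members. Many symbol stems of no shared homology were left out of the symbol families, some of them after the ranking was seen. Others, such as AU, Gas and Nedd, remain in the family counts. Other members, and the promoters and motifs shown, were chosen after their values were seen. Alternatives were other scalings, filters and tools (DESeq2 1.42.0), the 4 libraries alone, a replicate block and each library left out; leaving out mt-Rnr2 and mt-Rnr1 was added after seeing the data.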

Additional observations from a re-analysis of the deposited data

How the results depend on the processing

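Over the alternatives run, 3979 of 4029 values of the 290 named genes kept their direction and side of the threshold. Another 30 lost their call, 11 of them for Birc5 and 7 for Ero1lb. Signs changed only for genes that were not called. With upper-quartile scaling these were Ddx3y (-0.042), Eif2s3y (-0.14), Lpar1 (-0.13) and Smarca4 (-0.062). With library-size scaling they were Bmi1 (-0.081), Ddx3y (-0.12), Eif2s3y (-0.22), Klf4 (-0.067), Lpar1 (-0.21) and Smarca4 (-0.14). Leaving out 1 library in turn gave log2 fold changes of -0.39 to 0.57 for Ddx3y, -0.090 to 0.24 for Eif2s3y, -0.11 to 0.32 for Lpar1 and -1.16 to 0.066 for Sec61a2. The lowest values came without PDGFRa-only replicate 2 (Ddx3y and Sec61a2), PDGFRa-only replicate 1 (Eif2s3y) and PECAM1-only replicate 2 (Lpar1). Scaling moves every gene by the shift given in the report; the other causes were not tested.

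The 3884 genes called by the 2-fold test were 2586 with DESeq2 (1267 of them lower, against 1933), and a minimum count of 50 left 1225 lower with fewer genes tested. Leaving out 1 library gave 6827 to 8156 genes for the first test and 3363 to 3952 for the 2-fold test. The comparisons with double-positive libraries moved more: PDGFRa-only against double-positive gave 1326 to 2945 genes, 218 to 1235 of them higher, and double-positive against PECAM1-only gave 1307 to 2788 lower. With library-size scaling these comparisons gave 528 higher and 3658 lower. A replicate block gave 8397 genes and 3939 by the 2-fold test. Deviations of same-numbered libraries from their group means correlated with r = 0.183, -0.0289 and 0.132 over the 3 pairs of fractions, which is not positive in every pair, and the numbers were not used as pairs. Sec61a2 was called with the block (-0.50, adjusted p = 0.0466).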

Other observations

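Genes of the Y chromosome were unequal between the fractions. Of 8 tested, 6 were lower and none higher in the PDGFRa-only fraction, 4 of them by the 2-fold test. Uba1y, which encodes a ubiquitin-activating enzyme, had 1 and 3 counts in the PDGFRa-only libraries and 42 and 50 in the PECAM1-only libraries, and Usp9y, a deubiquitinase, had 3 and 2 against 28 and 26. Kdm5d, a histone demethylase, had 64 and 100 counts against 273 and 225, and Uty had 83 and 94 against 210 and 141. Ddx3y and Eif2s3y were not called. Eif2s3y had 200 and 234 counts against 269 and 236, and Ddx3y had 196 and 563 against 417 and 353. Ddx3y was called higher, at 0.57 (adjusted p = 0.00711), without PDGFRa-only replicate 1. Of 588 X-linked genes, 86 (14.6%) were higher and 116 (19.7%) lower by the 2-fold test, beside 14% and 13.9% of all tested genes. Among autosomes the share higher ran from 10% (chromosome 17) to 18.7% (chromosome 3). The share lower ran from 10.4% (chromosome 18) to 17.2% (chromosome 6). The median log2 fold change was -0.01 for X-linked genes and 0.01 for all tested genes, and the difference was not tested.

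Neighbouring genes that start from a shared stretch of DNA in opposite directions were compared after the data were seen. There were 553 such pairs of tested protein-coding genes with starts under 1000 bases apart, and in 24 both genes were called by the 2-fold test, 20 in the same direction and 4 in opposite directions. Across the 553 pairs, which share libraries, the log2 fold changes correlated with r = 0.283. The calcium-binding protein genes S100a1 and S100a13 start 43 bases apart and were both higher (8.44 and 5.22). The gene of the meiotic recombination protein Rad51c and Tex14 start 111 bases apart and were both lower (-2.29 and -4.94). The imprinted gene Peg3 and its neighbour Usp29 start 147 bases apart and went in opposite directions (2.21 and -3.07).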
